A study of Mus musculus with 20 samples.

Results

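The metallothioneins and a set of zinc transporters were followed in RNA from nuclei of mouse spinal cord. The set held 7 genes, taken by symbol from the 43629 genes of the count table: Mt1, Mt2, Mt3, Slc30a1, Slc30a3, Slc39a10 and Slc39a14. All 7 were found and all 7 passed the filter on low counts in every comparison. They were chosen by their level over the groups and their change with disease in each sort, so their values in every comparison, that of the sorts included, are a description with no test. Counts of calls among them in the main fit are given once per comparison beside the share over all genes. Counts from alternative fits come without the share of all genes in that fit. Nothing is read from any of these counts.

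Nuclei had been sorted for NeuN, the neuronal splicing factor encoded by Rbfox3, into a NeuN-positive and a NeuN-negative fraction. The mice were healthy, or had experimental autoimmune encephalomyelitis (EAE, an inflammatory disease of the central nervous system used to model multiple sclerosis) and were taken 15 days after active immunization. The 4 groups were healthy NeuN-positive, EAE NeuN-positive, healthy NeuN-negative and EAE NeuN-negative nuclei, with 5 libraries each. The strain, age and sex of the mice, the antigen and the treatment of the healthy mice are not stated in these sources. Nothing in the labels says that the libraries come from separate mice, so p-values measure only the spread between these libraries.

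Metallothioneins are small cysteine-rich proteins that bind zinc and copper. Mt1 and Mt2 are induced by zinc through the transcription factor MTF1, by glucocorticoids and by inflammatory cytokines, and in the central nervous system are known mainly from astrocytes and other glia. Mt3 is the brain-enriched form and responds little to metals. Transporters of the Slc30 (ZnT) family move zinc out of the cytosol, and those of the Slc39 (ZIP) family move it in. Slc30a1 exports zinc across the plasma membrane and is a classical MTF1 target, Slc30a3 loads zinc into the synaptic vesicles of glutamatergic neurons, Slc39a10 imports zinc, and Slc39a14 imports zinc, iron and manganese and is an acute phase gene of the liver.

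Mt3, Mt2 and Mt1 lie in this order on the plus strand of chromosome 8 within 27.7 kb, with 5513 bases between Mt2 and Mt1 (GENCODE M21, GRCm38). The positions are Mt3, ENSMUSG00000031760, 94152607 to 94154146, Mt2, ENSMUSG00000031762, 94172664 to 94173568, and Mt1, ENSMUSG00000031765, 94179082 to 94180327. Slc30a1 (ENSMUSG00000037434) lies on chromosome 1 from 191906767 to 191913247 and Slc39a10 (ENSMUSG00000025986) on the same chromosome from 46807544 to 46892852. Slc30a3 (ENSMUSG00000029151) lies on chromosome 5 from 31086106 to 31108237 and Slc39a14 (ENSMUSG00000022094) on chromosome 14 from 70303469 to 70351425. An antisense gene shares 432 exon bases with Mt2 and another shares 468 with Slc30a1. The use of strand in counting is not given, so reads of these pairs cannot be told apart.

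The promoters below are shown because Mt1, Mt2 and Slc30a1 are textbook targets of MTF1, which binds the metal response element. A further reason was that Mt1 and Mt2 moved together while their neighbour Mt3 had smaller fold changes. Any part of the matches in these changes was not tested. The sequences are RefSeq's windows before the gene start (GRCm38.p6, plus strand, 5′ to 3′), and end where the first transcript of either annotation begins. Capitals mark matches to the core of the element, searched as TGCACNC and TGCGCNC on both strands, where N is any base. No matches overlapped.
Mt1, chr8:94178839-94179081: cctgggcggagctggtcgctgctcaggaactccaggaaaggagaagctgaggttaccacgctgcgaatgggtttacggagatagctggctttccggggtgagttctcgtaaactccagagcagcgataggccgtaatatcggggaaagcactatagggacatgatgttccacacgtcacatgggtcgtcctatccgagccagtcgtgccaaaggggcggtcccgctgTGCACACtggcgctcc
Mt2, chr8:94172368-94172617: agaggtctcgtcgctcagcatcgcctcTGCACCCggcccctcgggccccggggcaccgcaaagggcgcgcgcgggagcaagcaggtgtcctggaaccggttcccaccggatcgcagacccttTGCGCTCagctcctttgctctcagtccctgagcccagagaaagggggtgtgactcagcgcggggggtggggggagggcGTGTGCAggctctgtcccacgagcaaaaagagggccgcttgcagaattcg
Mt3, chr8:94152357-94152606: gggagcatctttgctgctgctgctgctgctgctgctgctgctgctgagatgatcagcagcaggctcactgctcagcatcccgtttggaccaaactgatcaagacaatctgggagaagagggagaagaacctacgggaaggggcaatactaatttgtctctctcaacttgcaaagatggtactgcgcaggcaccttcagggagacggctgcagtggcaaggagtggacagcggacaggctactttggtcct
Slc30a1, chr1:191906531-191906766: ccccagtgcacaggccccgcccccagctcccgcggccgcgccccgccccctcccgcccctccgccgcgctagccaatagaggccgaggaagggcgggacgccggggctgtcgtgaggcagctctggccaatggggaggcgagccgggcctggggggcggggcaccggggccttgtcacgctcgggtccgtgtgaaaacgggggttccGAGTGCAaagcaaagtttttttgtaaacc
The Mt2 window held 3 matches, the Mt1 and Slc30a1 windows 1 each, and the Mt3 window 0. Of 32851 RefSeq promoter windows of 250 bases, 21.4% held at least 1 match and 1.26% at least 3. Of 20 such windows of other zinc transporters 9 held a match, and that of Slc30a10 held 3. GENCODE gives Mt1 further starts 122 and 152 bases after the RefSeq start, and the 250 bases before either of these held 5 matches. Of the RefSeq windows 0.0822% reached this number, and no share is given for windows before the later GENCODE starts of all genes. A later Mt2 start, 242 bases after the RefSeq one, had 4 matches in the 250 bases before it, and a later Mt3 start at 139 bases had 3. A match is a description of letters and shows no binding. RefSeq entries were found for 6 of the 7 genes, with 1 match in an upstream window of Slc30a3 and 0 in its other window and in both windows of Slc39a10.

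Total counts per library ran from 3149209 in an EAE NeuN-negative to 37689267 in a healthy NeuN-negative library. Transcripts of the mitochondrial genome, made outside the nucleus, took 0.197 to 3% of counts in NeuN-positive libraries of healthy mice and 1.08 to 9.35% in those of EAE mice. In NeuN-negative libraries they took 0.367 to 4.51% and 2.18 to 14.6%. The neuron marker list held 3150 to 4130 summed CPM (counts scaled to library size) in healthy and 2600 to 3620 in EAE NeuN-positive libraries, against 665 to 2480 and 572 to 1320 in NeuN-negative ones. Of 10 oligodendrocyte markers 8 were called lower in NeuN-positive than in NeuN-negative nuclei of healthy mice, with a median log2 difference of -4.03. In EAE mice 7 of these 10 were called lower, with a median of -1.90. Their summed level in NeuN-positive libraries, 3630 to 44300 CPM in healthy and 10800 to 98000 in EAE mice, came mostly from Mbp and Mobp, at means of 8940 and 3310 CPM in healthy mice. Rbfox3 stood at 312 ± 33.1 CPM in healthy NeuN-positive and 29.6 ± 10.7 in healthy NeuN-negative libraries. In EAE NeuN-positive libraries it stood at 193 ± 58.3 CPM. The other glial lists also differed less between the sorts in EAE than in healthy mice. Their medians were -2.74 against -4.61 for microglia, -2.38 against -4.13 for oligodendrocyte precursor and -1.19 against -2.61 for astrocyte markers. For neuron markers the medians were 1.91 in EAE and 1.76 in healthy mice. The mice numbered EAE 2, EAE 4 and healthy 3, taking same-number libraries as 1 mouse, had NeuN-positive libraries with over 2% mitochondrial counts and stood apart from the rest. Results were also computed without these mice, called below the 3 mice of high mitochondrial share. They were picked on NeuN-positive libraries alone. In the NeuN-negative sort, libraries of EAE 5 (7.94%) and EAE 1 (4.87%) were kept, while that of healthy 3 (4.51%) was left out.

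**Figure D1:**
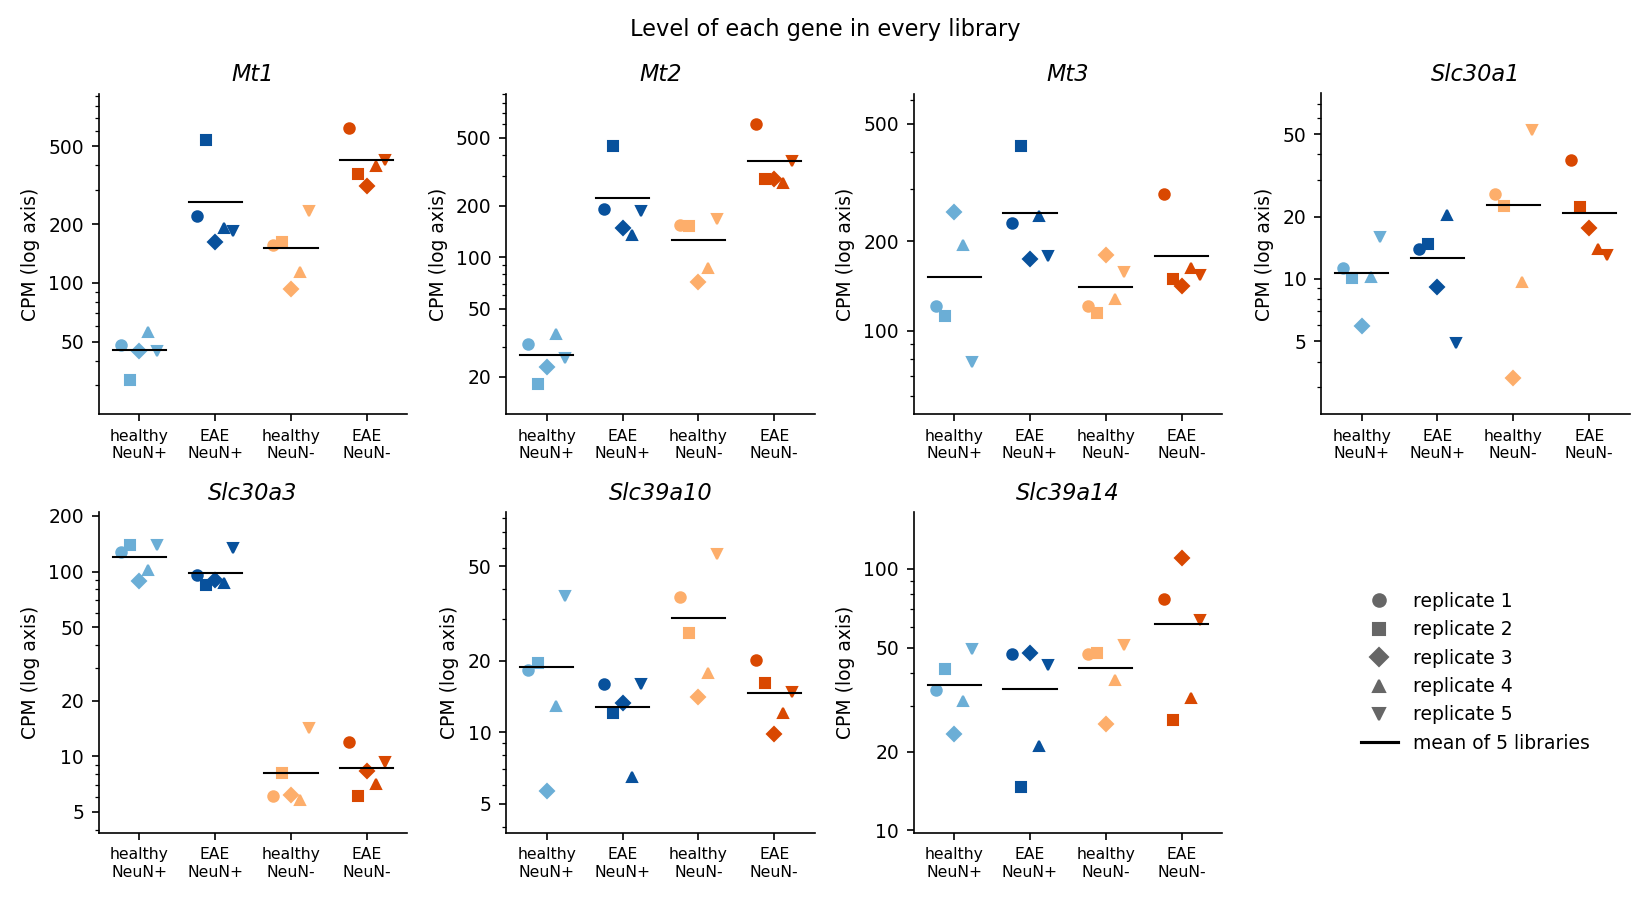
Level of each of the 7 genes in CPM (vertical log axis, its range set for each gene) in the 20 libraries of the 4 groups, with 1 symbol per replicate number and the mean of 5 libraries as a line. Mt1 and Mt2 are lowest in healthy NeuN-positive libraries, and Slc30a3 stands at 84.8 CPM or more in all NeuN-positive libraries and at 14.3 or less in all NeuN-negative ones.

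Mt1 was higher in EAE than in healthy libraries in both sorts. In NeuN-positive libraries it stood at 48.1, 31.9, 44.9, 56.1 and 44.6 CPM in healthy and at 220, 540, 162, 192 and 184 CPM in EAE mice. Every EAE library lay above every healthy one. The log2 fold change was 2.64 ± 0.36 (SE, 5 against 5 libraries), a 6.21-fold rise. EAE library 2 was far above the other EAE libraries, and without it the log2 fold change was 2.13.

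In NeuN-negative libraries Mt1 stood at 156, 162, 93, 114 and 232 CPM in healthy and at 621, 360, 315, 396 and 425 CPM in EAE mice. The groups did not overlap here either, although the healthy libraries were already higher than in the NeuN-positive sort. This gave a log2 fold change of 1.74 ± 0.35. In order of mean level the groups ran healthy NeuN-positive (45.1 ± 8.72 CPM, SD, n = 5), healthy NeuN-negative (151 ± 53.7), EAE NeuN-positive (260 ± 158) and EAE NeuN-negative (423 ± 118). The first group stood apart from the second, whereas the second overlapped the third and the third the fourth.

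Mt2, the neighbour of Mt1 with a like function, showed the same order of groups. Its NeuN-positive libraries held 31, 18.1, 22.8, 35.8 and 25.8 CPM in healthy and 192, 448, 149, 136 and 187 CPM in EAE mice. The groups did not overlap, and EAE library 2 was again the highest. The log2 fold change was 3.17 ± 0.37, an 8.98-fold rise, and 2.69 without EAE library 2.

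Mt2 in NeuN-negative libraries stood at 155, 152, 71.4, 86.9 and 168 CPM in healthy and at 607, 289, 286, 273 and 366 CPM in EAE mice. All 5 EAE libraries were above all 5 healthy ones, with EAE library 1 the highest. The log2 fold change was 1.77 ± 0.36, or 1.51 without that library. The difference between the 2 sorts in the EAE change, from an interaction term over the 20 libraries, was 1.04 ± 0.47 for Mt1 and 1.53 ± 0.49 for Mt2 on the log2 scale, with the larger rise in NeuN-positive nuclei. Library 2 of the EAE NeuN-positive group weighed on these values, which were 0.44 and 0.96 without it, and 0.46 and 0.94 without the 3 mice of high mitochondrial share. The median of all genes was 0.15 for this term, and -0.11 with another scaling, DESeq2 size factors.

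Mt3, the third gene of the cluster, had smaller fold changes. Its NeuN-positive libraries held 121, 112, 252, 195 and 78.2 CPM in healthy and 230, 421, 175, 244 and 178 CPM in EAE mice, and the groups overlapped. Its log2 fold change was 0.80 ± 0.36. In NeuN-negative libraries it stood at 121, 115, 180, 128 and 157 CPM in healthy and at 288, 149, 141, 163 and 154 CPM in EAE mice, again with overlap, at a log2 fold change of 0.57 ± 0.31. The NeuN-positive value was 0.49 without EAE library 2 and 0.04 with the mitochondrial share as a covariate, and ran from 0.04 to 1.08 over 19 alternatives. The NeuN-negative value was 0.34 without EAE library 1, 0.22 with the covariate and 0.80 without the 3 mice of high mitochondrial share, its lowest and highest being 0.22 and 0.80.

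Among the exporters, Slc30a1 varied more within groups than between them. It ran from 5.95 to 15.9 CPM in healthy and from 4.91 to 20.4 CPM in EAE NeuN-positive libraries, and from 3.34 to 52.3 and 13 to 37.6 CPM in NeuN-negative libraries. Its log2 fold changes in EAE were 0.34 ± 0.38 and 0.15 ± 0.50, and without the 3 mice of high mitochondrial share -0.24 and -0.06. The vesicle transporter gene Slc30a3 held 128, 139, 88.9, 102 and 140 CPM in healthy and 95.3, 84.8, 90.1, 87.2 and 134 CPM in EAE NeuN-positive libraries. These groups overlapped, at a log2 fold change of -0.19 ± 0.20, and that in NeuN-negative libraries was 0.34 ± 0.39.

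Of the importers, Slc39a10 was on average lower and Slc39a14 was split between libraries. Slc39a10 held 18.2, 19.5, 5.65, 12.9 and 37.6 CPM in healthy and 16, 12, 13.3, 6.46 and 15.9 CPM in EAE NeuN-positive libraries (log2 fold change -0.46 ± 0.41). In NeuN-negative libraries it held 37, 26.2, 14.1, 17.8 and 56.5 against 20.2, 16.1, 9.82, 12 and 14.8 CPM (log2 fold change -0.78 ± 0.36), and the groups overlapped in both sorts. Slc39a14 held 34.4, 41.5, 23.3, 31.3 and 49.5 CPM in healthy and 47.1, 14.7, 47.6, 21 and 43.1 CPM in EAE NeuN-positive libraries (log2 fold change 0.02 ± 0.31). EAE libraries 2 and 4 were low and the other 3 stood at 43.1 CPM or more. The same 2 numbers were the lowest of the EAE NeuN-negative libraries, which held 76.6, 26.4, 110, 32 and 63.7 CPM against 47.4, 47.6, 25.5, 37.6 and 51.1 in healthy mice. The log2 fold change there was 0.77 ± 0.34, and 1.10 without the 3 mice of high mitochondrial share.

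**Figure D2:**
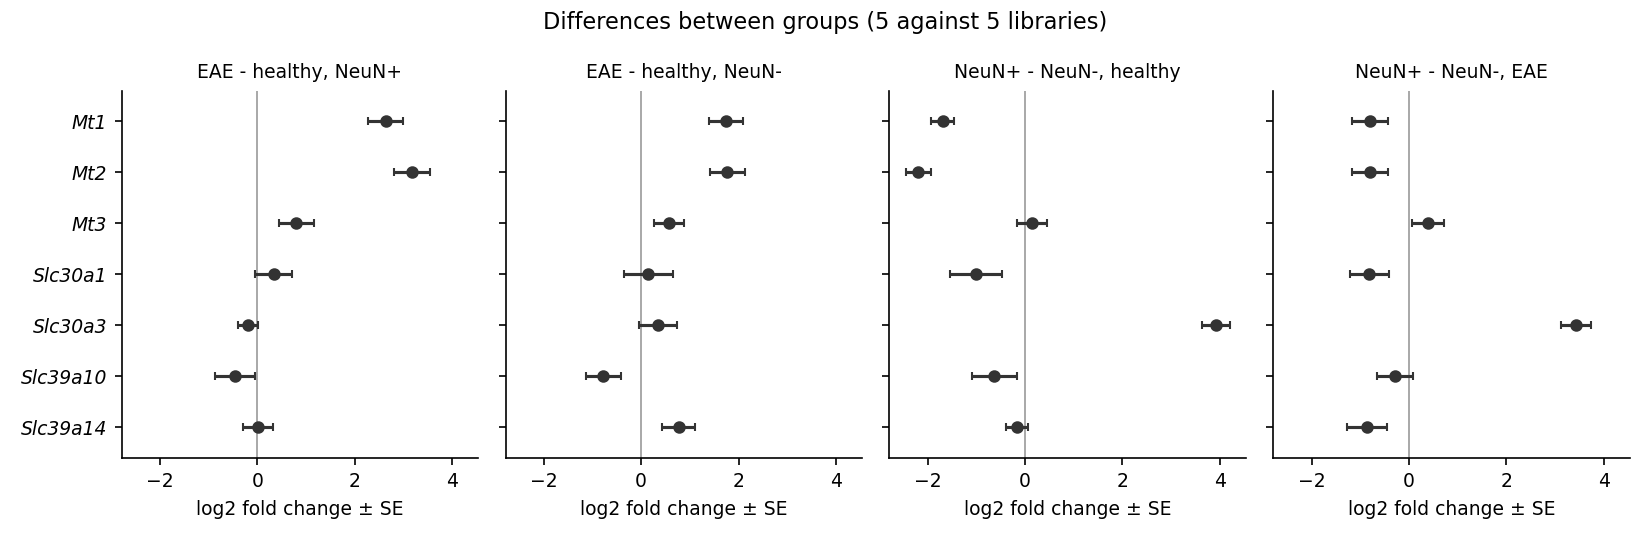
Log2 fold changes of the 7 genes (points, horizontal axis) with their standard errors (bars) in the EAE comparisons of each sort and in the sort comparisons of healthy and EAE mice, each from 5 against 5 libraries. Mt1 and Mt2 lie at 1.74 to 3.17 in the EAE comparisons, and Slc30a3 at 3.92 and 3.43 in the sort comparisons.

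At an adjusted p under 0.05 (edgeR, over all genes tested), Mt1 and Mt2 were the 2 of 7 genes called higher in EAE NeuN-positive nuclei, and 0 were called lower. Of all 16675 genes tested there, 6.55% were called higher and 3.68% lower, and 5.16% had all 5 EAE libraries above all 5 healthy ones. The same 2 of 7 were called higher in NeuN-negative nuclei and 0 lower, where the shares of all genes were 15.1 and 12.6%, and 7.13% had no overlap in the rising direction. Without the 3 mice of high mitochondrial share 4 of 7 were called higher there, and the share of all genes in that fit is not given. Over the alternatives 1027 to 5618 of all genes were called higher in NeuN-negative nuclei. None of the 7 was called in the interaction, where 1.74% of all genes were called higher and 0.822% lower. With the replicate number as a block, 1 of 7, Mt2, was called there. The median log2 fold change of the 7 genes was 0.34 in NeuN-positive and 0.57 in NeuN-negative nuclei, against -0.03 and 0.05 for all genes tested.

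The mitochondrial share and markers of other cells moved with disease as well. In EAE NeuN-positive library 2, the highest for Mt1 and Mt2, mitochondrial transcripts took 9.35% of counts. They took 4.87% in the highest NeuN-negative library, EAE 1, and 14.6% in EAE NeuN-negative library 2. The part of the mitochondrial share in the levels of Mt1 and Mt2 was not tested. Without the 3 mice of high mitochondrial share, the log2 fold changes were 2.18 for Mt1 and 2.79 for Mt2 in NeuN-positive and 1.69 and 1.82 in NeuN-negative nuclei. With the share as a covariate they were 1.93 and 2.62, and 1.88 and 2.25.

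Markers of infiltrating cells rose in the NeuN-positive sort, as did part of the microglia markers and of the fibroblast and pericyte markers. Summed CPM of the 10 monocyte and macrophage markers ran from 4.26 to 24.6 in healthy and from 296 to 1800 in EAE NeuN-positive libraries, with 8 of 9 tested called higher. The 8 microglia markers summed to 22.4 to 40.9 and 94.2 to 187 CPM, with 3 of 7 tested called higher, and neutrophil and T cell markers were called higher for 5 of 5 tested each. The 8 neutrophil markers summed to 1.68 to 6.34 CPM in healthy libraries, with Cxcr2 at 0, and to 17.9 to 138 in EAE ones, and the 8 T cell markers to 4.65 to 11.8 and 18.5 to 69.2. Fibroblast and pericyte markers summed to 51.2 to 101 and 93 to 391 CPM, with 5 of 8 called higher. In NeuN-negative libraries monocyte and macrophage markers summed to 38.4 to 88.4 CPM in healthy and 687 to 2410 in EAE mice, with 10 of 10 called higher. The 10 astrocyte markers summed to 512 to 793 CPM in healthy and 413 to 847 in EAE NeuN-positive libraries, with 0 of 10 called. In NeuN-negative libraries astrocyte markers summed to 1290 to 4320 CPM in healthy and 596 to 1870 in EAE mice, with 3 of 10 called lower. No marker of these lists was at 0 in all EAE NeuN-positive libraries. Their part in the levels of Mt1 and Mt2 was not tested, and a change in the number of cells of a type and a change in RNA per cell cannot be told apart in such pooled nuclei.

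**Figure D3:**
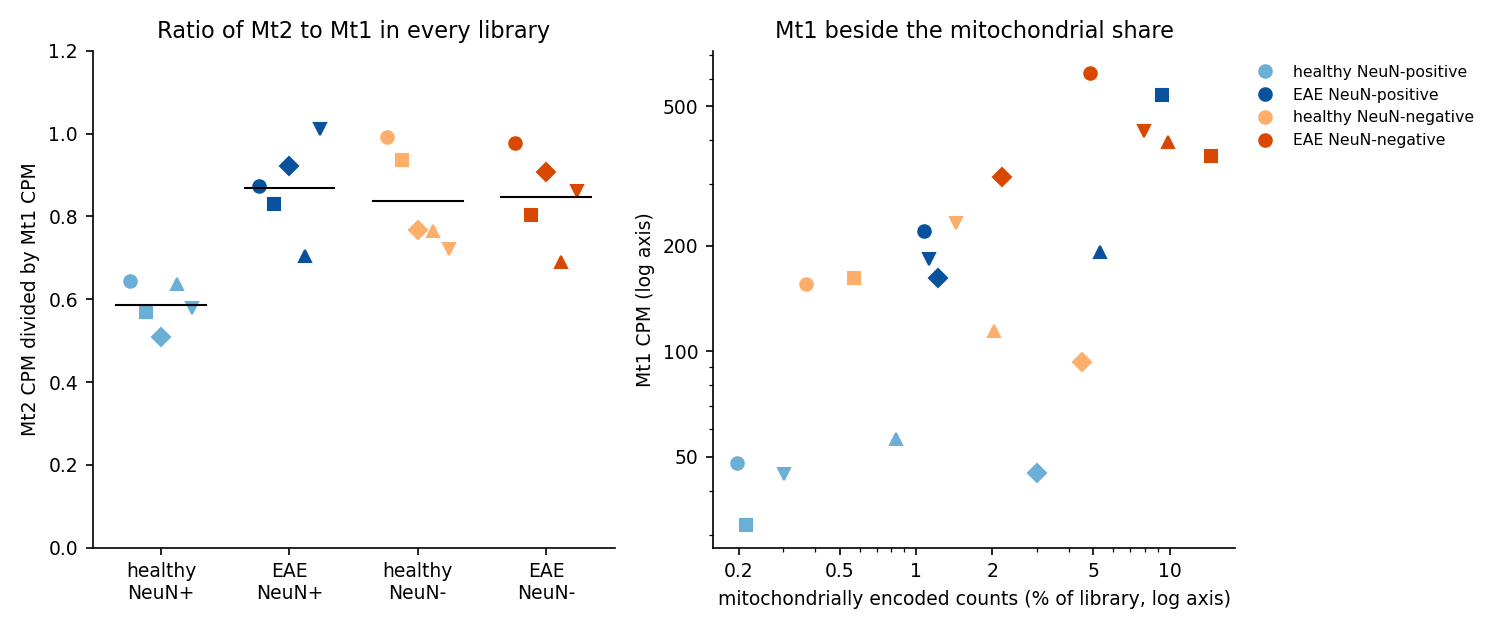
Left, Mt2 CPM divided by Mt1 CPM in every library of the 4 groups (vertical axis from 0), with the mean of 5 libraries as a line. Right, Mt1 CPM against the mitochondrially encoded share of counts (both axes log), 1 point per library. The healthy NeuN-positive ratios, 0.508 to 0.643, lie below all others.

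The ratio of Mt2 to Mt1 within a library differed between the groups. It was 0.587 ± 0.0559 (SD, n = 5) in healthy NeuN-positive libraries, with a range of 0.508 to 0.643. All other libraries stood higher, at 0.869 ± 0.114 in EAE NeuN-positive, 0.836 ± 0.12 in healthy NeuN-negative and 0.848 ± 0.109 in EAE NeuN-negative nuclei. The lowest of these 15 was 0.69. The ratio of Mt1 to Mt3 was 0.343 ± 0.149, 0.998 ± 0.182, 1.12 ± 0.406 and 2.4 ± 0.231 in the same order, so that Mt1 outweighed Mt3 in counts by at least 2.16 times in every EAE NeuN-negative library.

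Per kilobase of exon, Mt3 was the highest of the 7 genes in healthy NeuN-positive nuclei, at 142 ± 66.1 CPM per kb. Mt2 at 45.4 ± 11.7, Slc30a3 at 42.1 ± 8.11 and Mt1 at 36.2 ± 7 CPM per kb followed without differing beyond their spread. Slc39a14 at 3.41, Slc39a10 at 3.08 and Slc30a1 at 2.04 CPM per kb came last. In EAE NeuN-positive nuclei the order began with Mt2 (378 ± 218 CPM per kb), Mt3 (234 ± 94.5) and Mt1 (208 ± 127), whose ranges overlapped, with Slc30a3 at 34.7 ± 7.17. In EAE NeuN-negative nuclei Mt2 stood at 619 ± 239, Mt1 at 340 ± 94.6 and Mt3 at 168 ± 57.5 CPM per kb. The annotated exons of Mt1, 1246 bases in union, filled its whole span, while those of Mt2 made 588 bases. The order of Mt1 and Mt2 per kilobase therefore rests on these lengths. Without the lengths, Mt1 had the higher mean CPM in all 4 groups, as at 423 against 364 in EAE NeuN-negative nuclei.

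Of the 7 genes the sorts differed most for Slc30a3, which was 3.92 ± 0.28 higher on the log2 scale in NeuN-positive than in NeuN-negative nuclei of healthy mice. NeuN-negative libraries held 6.13, 8.09, 6.17, 5.79 and 14.3 CPM in healthy and 12, 6.11, 8.37, 7.13 and 9.38 CPM in EAE mice. No NeuN-negative library reached a NeuN-positive one, and NeuN-positive nuclei were higher in 5 of 5 same-number pairs in each condition. In EAE mice the difference was 3.43 ± 0.31.

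Mt1 and Mt2 showed the opposite order in healthy mice. The log2 difference of NeuN-positive from NeuN-negative nuclei was -1.69 ± 0.23 for Mt1 and -2.19 ± 0.26 for Mt2, both lower in 5 of 5 pairs and with no overlap. Slc39a10 (-0.63 ± 0.46) and Slc39a14 (-0.16 ± 0.23) were also lower in 5 of 5 pairs, although their groups overlapped. Slc30a1 (-1.01 ± 0.53) was lower in 3 of 5 pairs, and Mt3 (0.14 ± 0.31) went either way. The share of all genes with no overlap or 5 of 5 pairs between the sorts is not given here. This holds for Slc30a3 and for the EAE mice as well, and nothing is read from these counts. In healthy mice 1 of 7 genes, Slc30a3, was called higher and 2 of 7, Mt1 and Mt2, lower, against 22.8 and 23.0% of the 17134 genes tested. With the replicate block Slc39a10 was called lower as well, at -0.70, and without the 3 mice of high mitochondrial share so was Slc30a1, at -1.15.

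In EAE mice the difference between the sorts was -0.80 ± 0.37 for Mt1 and -0.80 ± 0.37 for Mt2, lower in NeuN-positive nuclei in 4 of 5 pairs. Number 2 was the exception for both genes. The size depended on single libraries: it was -1.17 and -1.14 without EAE NeuN-positive library 2, -0.64 and -0.56 without EAE NeuN-negative library 1, and -0.47 and -0.57 with the mitochondrial share as a covariate. Slc39a14 was lower in NeuN-positive nuclei in 5 of 5 EAE pairs, at -0.87 ± 0.41. Mt3 was at 0.39 ± 0.33, Slc30a1 at -0.81 ± 0.41 and Slc39a10 at -0.28 ± 0.37. In these mice 1 of 7 genes, Slc30a3, was called higher and 0 lower, against 15.5 and 14.8% of the 17982 genes tested. Mt1 and Mt2 were each called lower in 5 of 19 alternatives and Slc39a14 in 4, all 3 of them with the replicate block (-0.93, -0.90 and -0.88). Without the 3 mice of high mitochondrial share 4 were called lower: Mt1 (-1.28), Mt2 (-1.27), Slc30a1 (-1.29) and Slc39a14 (-0.88). The median of all genes in this comparison was -0.16, and -0.27 with DESeq2 size factors.

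**Figure D4:**
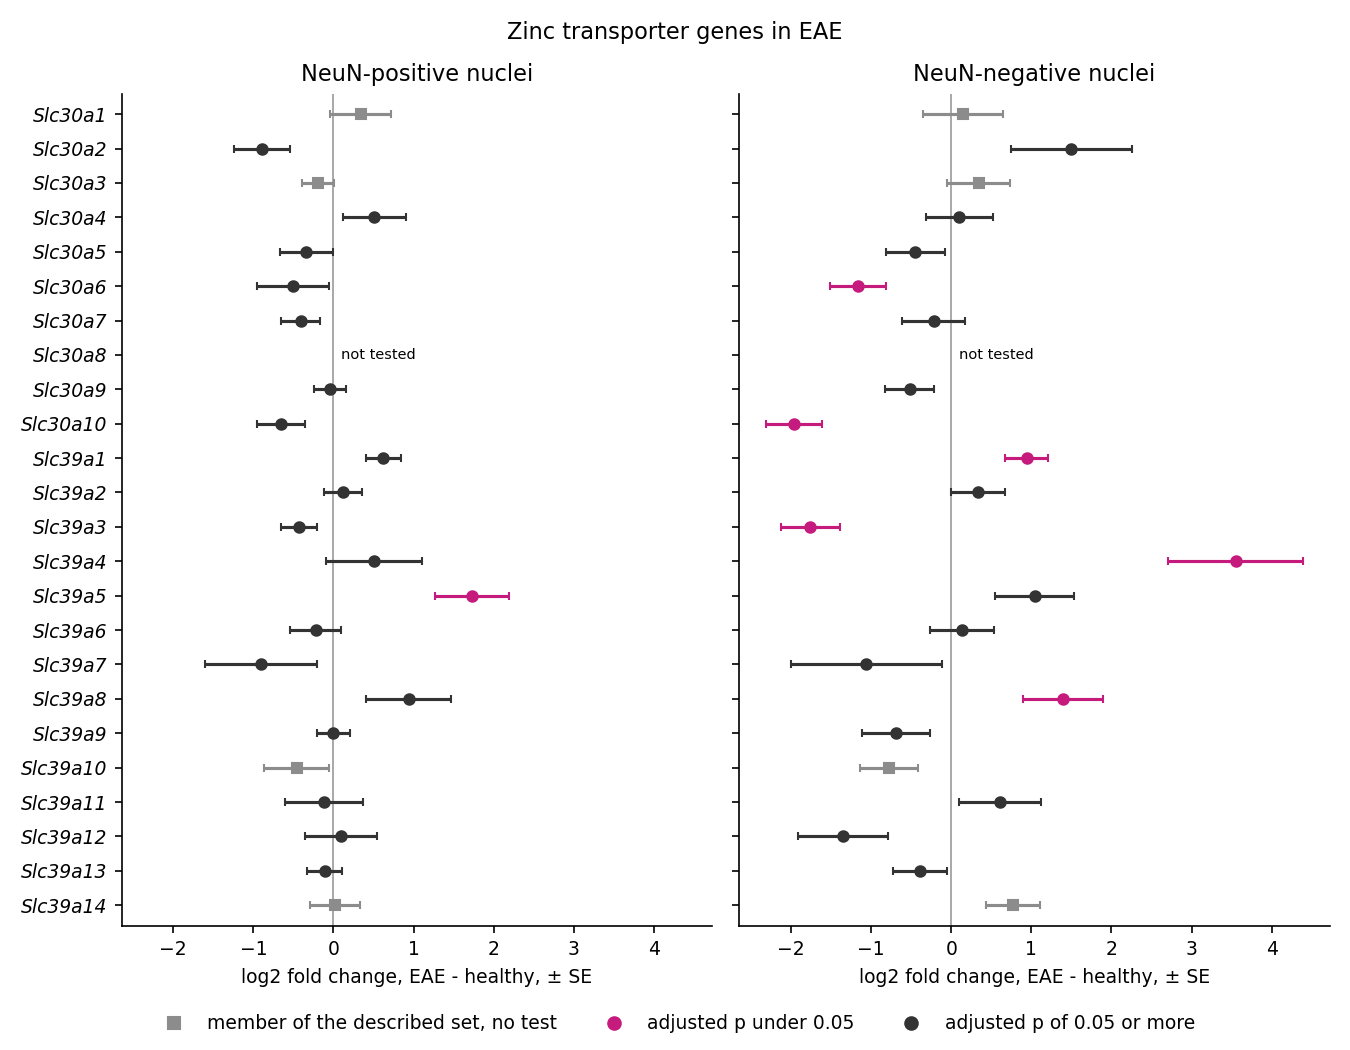
Log2 fold changes in EAE (points, horizontal axis) with standard errors (bars) of the zinc transporter genes in NeuN-positive and NeuN-negative nuclei, 5 against 5 libraries. Grey squares are the 4 genes of the described set, and coloured points passed an adjusted p under 0.05: 1 in NeuN-positive and 6 in NeuN-negative nuclei.

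The other zinc transporters, 8 of the Slc30 and 12 of the Slc39 family, were tested beside them. In NeuN-positive nuclei 1 of 19 tested was called higher in EAE and 0 lower, where 6.55 and 3.68% of all genes were called. Their median log2 fold change was -0.11, against -0.03 for all genes. The gene called was Slc39a5, a plasma membrane importer, at 23.9, 20.8, 8.23, 33.7 and 24.2 CPM in EAE and 5.97, 5.08, 14.1, 7.44 and 2.76 in healthy mice. Library 3 of each group broke the separation. The log2 fold change was 1.73 ± 0.46 (adjusted p = 0.0288, edgeR), and it passed in 10 of 19 alternative analyses, with adjusted p from 8.38e-06 to 0.173.

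In NeuN-negative nuclei 3 of 19 other transporters rose and 3 fell in EAE, with a median log2 fold change of -0.22 against 0.05 for all genes. Of all genes 15.1% rose and 12.6% fell there, so the counts lay near the background, and the values below describe single genes rather than the family. The largest rise was that of Slc39a4, an importer known from zinc uptake in the gut, from 0.53 ± 0.439 to 5.03 ± 3.28 CPM (log2 fold change 3.55 ± 0.84, adjusted p = 0.00583, edgeR). It rested on few counts, 44 in the 5 healthy and 183 in the 5 EAE libraries. Slc39a1 rose by 0.94 ± 0.27 (adjusted p = 0.0194, edgeR), to 34.2 ± 9.98 CPM, and Slc39a8, an importer of zinc and manganese, by 1.40 ± 0.50 (adjusted p = 0.0461, edgeR), to 12.7 ± 6.01 CPM. Slc39a8 passed in 7 and Slc39a1 in 11 of 19 alternatives. Without the 3 mice of high mitochondrial share Slc39a8 was at 0.75 (adjusted p = 0.286, edgeR), where its adjusted p over all alternatives ran from 0.0192 to 0.486.

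Slc30a10, an exporter known mainly for manganese, fell from 56.5, 45.1, 48.7, 47 and 25.5 CPM in healthy to 16, 3.86, 10.1, 10.2 and 9.29 CPM in EAE NeuN-negative libraries. All EAE libraries lay below all healthy ones (log2 fold change -1.96 ± 0.35, adjusted p = 0.000777, edgeR). The importer gene Slc39a3 fell from 145 ± 23.5 to 37.3 ± 20.5 CPM, also without overlap (-1.76 ± 0.37, adjusted p = 0.00274, edgeR). Slc39a3 passed in 18 of 19 alternatives, but not with the mitochondrial share as a covariate (-1.27, adjusted p = 0.0762, edgeR). Slc30a6, a transporter of the secretory pathway, fell from 20.7 ± 6.3 to 7.79 ± 2.98 CPM (-1.16 ± 0.35, adjusted p = 0.0214, edgeR), and passed in 13 of 19 alternatives. In the NeuN-positive sort Slc30a10 (-0.66 ± 0.30) and Slc39a3 (-0.43 ± 0.22) did not pass, with adjusted p of 0.159 and 0.214 (edgeR). In the interaction none of the 19 passed, and with the replicate block 3 did: Slc30a10 (1.48, adjusted p = 0.00658, edgeR), Slc39a3 (1.61, adjusted p = 0.00393, edgeR) and Slc39a4 (-2.87, adjusted p = 0.0467, edgeR). Oligodendrocyte precursor markers also fell in EAE NeuN-negative nuclei (3 of 5) and oligodendrocyte markers too (5 of 10), and their part in these falls was not tested.

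Between the sorts of healthy mice 2 of 19 other transporters were higher in NeuN-positive nuclei and 3 lower, under the 22.8 and 23.0% of all genes. Slc39a2, a plasma membrane importer, was 2.15 ± 0.22 higher (adjusted p = 7.2e-06, edgeR), at 85.7 ± 8.74 against 19.7 ± 4.15 CPM, and Slc30a2 was 1.30 ± 0.29 higher (adjusted p = 0.00251, edgeR). Slc39a12, an importer known from astrocytes, was lower by -3.01 ± 0.67 (adjusted p = 0.00282, edgeR), Slc39a8 by -1.71 ± 0.45 (adjusted p = 0.00769, edgeR) and Slc39a1 by -0.60 ± 0.21 (adjusted p = 0.0335, edgeR). With the replicate block Slc30a6 (adjusted p = 0.0106, edgeR), Slc39a3 (0.00302), Slc39a6 (0.0468) and Slc39a13 (0.00626) passed as well, the first lower and the other 3 higher. In EAE mice 4 of 18 tested were higher, among them Slc39a2 (1.97 ± 0.36, adjusted p = 0.000704, edgeR) and Slc39a3 (1.77 ± 0.40, adjusted p = 0.00302, edgeR), and 4 lower, among them Slc39a8 (-2.15 ± 0.55, adjusted p = 0.00757, edgeR). Of all genes 15.5 and 14.8% were called higher and lower in this comparison. Slc30a9 joined the higher ones with the replicate block (0.64, adjusted p = 0.0392, edgeR).

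Mtf1, which encodes the zinc sensor that drives metallothionein transcription, did not pass in either EAE comparison. In the NeuN-positive sort it stood at 20.3 ± 6.53 CPM in healthy mice and at 13.4 ± 2.31 in EAE mice (log2 fold change -0.52 ± 0.26, adjusted p = 0.203, edgeR), and at 32.2 ± 12.9 and 20.7 ± 5.99 CPM in NeuN-negative libraries (-0.34 ± 0.36, adjusted p = 0.504, edgeR). Between the sorts of healthy mice it was at -0.59 ± 0.32 (adjusted p = 0.155, edgeR), and it passed with the replicate block at -0.56 (adjusted p = 0.0212, edgeR). Mt4, the form of stratified epithelia, had 3 counts in the 5 healthy and 0 in the 5 EAE NeuN-positive libraries, and 0 and 13 in the NeuN-negative ones, and was too low to test. Tmem163, a zinc-binding protein gene of synaptic vesicles, was 1.09 ± 0.27 higher in NeuN-positive nuclei of healthy mice (adjusted p = 0.00562, edgeR) and did not pass in the EAE comparisons.

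Other gene lists that touch metal handling or metallothionein control were counted in the same way, where 6.55% of all genes rose and 3.68% fell in NeuN-positive and 15.1% rose and 12.6% fell in NeuN-negative nuclei. The medians of all genes were -0.03 and 0.05. Of 24 iron and copper genes tested, 9 rose and 0 fell in EAE NeuN-positive nuclei (median 0.88), and 8 rose and 1 fell in NeuN-negative nuclei (median 0.94). Hp, the haptoglobin gene, rose by 6.20 ± 0.55 (adjusted p = 1.7e-05, edgeR) and 7.53 ± 0.63 (adjusted p = 1.48e-06, edgeR) in the 2 sorts. Slc11a1, the divalent metal transporter of phagosomes, rose by 3.93 ± 0.49 in NeuN-positive nuclei (adjusted p = 0.000177, edgeR). Lcn2, which binds iron-carrying siderophores, rose by 6.47 ± 0.76 in NeuN-negative nuclei (adjusted p = 2.23e-05, edgeR), and Aco1, an iron regulatory protein gene, fell there by a log2 change of -0.83 ± 0.28 (adjusted p = 0.0385, edgeR).

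Of 14 genes known to respond to STAT3, a factor downstream of interleukin-6 that also acts on the metallothioneins, 12 rose in NeuN-positive and 11 in NeuN-negative nuclei, with medians of 2.26 and 2.91. Examples were Cebpb (3.09 ± 0.35, adjusted p = 9.74e-05, edgeR) and Serpina3n (3.27 ± 0.41, adjusted p = 0.000206, edgeR) in NeuN-positive nuclei, and Timp1 (4.63 ± 0.42, adjusted p = 1.95e-06, edgeR) and Serpina3n (4.12 ± 0.38, adjusted p = 2.16e-06, edgeR) in NeuN-negative nuclei. Of 15 glucocorticoid-responsive genes 3 rose in NeuN-positive and 2 in NeuN-negative nuclei, with 0 falling and medians of 0.68 and -0.32. The NeuN-negative count lay near the 15.1% of all genes that rose. Nfkbia rose in both, by 2.04 ± 0.26 (adjusted p = 0.000206, edgeR) and 1.71 ± 0.41 (adjusted p = 0.00656, edgeR), Plin4 in NeuN-positive nuclei (1.67 ± 0.37, adjusted p = 0.0128, edgeR) and Fkbp5 in NeuN-negative nuclei (1.62 ± 0.40, adjusted p = 0.00827, edgeR). Nfkbia is also a target of NF-kappa B. Markers of infiltrating cells also rose in EAE, as given above, and their part in these counts was not tested. Nor was any part of STAT3 or glucocorticoids in the levels of Mt1 and Mt2 tested. The lists were chosen with earlier results of these data known.

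Likeness of pattern was measured by Pearson's r of log2 CPM over the 20 libraries, among 14279 genes whose log2 CPM averaged at least 1. It is a description, since the libraries fall into 4 groups that differ in cells and depth. For Mt1 the gene most like it was Mt2 (r = 0.991, and 0.94 for the deviations from the group means), followed by Vcam1, a leukocyte adhesion molecule (0.979), Msn, which encodes moesin (0.978), and Tmsb4x (0.977). For Mt2 they were Mt1, Vcam1 (0.981), Msn (0.972) and Sdc4, a syndecan gene (0.97). Vcam1 stood at 1.36 ± 0.513 CPM in healthy and 17 ± 13.6 in EAE NeuN-positive nuclei. Mt3 ranked 2161 among the genes most like Mt1, at r = 0.47, although it lies in the same cluster.

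The nearest genes to Mt3 were Ndufa2 (0.913), Smdt1 (0.898) and Ndufs6 (0.888), nuclear genes for mitochondrial proteins. Slc30a3 was most like Cntnap1 (0.985, and 0.648 for the deviations from the group means), Meg3 (0.982 and 0.707) and Crmp1 (0.981 and 0.65), all known from neurons. For Slc39a10 they were Zfp266 (0.92), Plod2 (0.915) and P2ry1 (0.907), for Slc39a14 Malt1 (0.897), Zc3h7a (0.895) and Il15ra (0.89), and for Slc30a1 Plat (0.865), Ptgr2 (0.863) and Akirin1 (0.861). Among the transporter genes the closest to another of the 7 was Slc30a1, for which Slc39a10 ranked 1251 (r = 0.494). For the deviations from the group means r was 0.564 for this pair, and 0.669 for Slc30a3 with Slc39a10.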

How the data were processed

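RNA of NeuN-positive and NeuN-negative nuclei was measured in 20 libraries, made from polyadenylated RNA per the labels' protocols. The values deposited by the authors are raw counts per Ensembl gene, with no normalization. STAR 2.4, DESeq2 and the builds GRCm39 and mm10 are named, without roles, in the submitters' processing notes. For the counting tool, the annotation and the strand setting, the entry is: not given in the sources used here. Of 43629 gene identifiers, 42462 had a symbol in GENCODE M21.

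Groups were taken from the titles. Tests on the counts were run in R 4.3.3 with edgeR 4.0.16 (low counts removed by filterByExpr, TMM, robust quasi-likelihood fit, Benjamini-Hochberg over all genes tested, call at an adjusted p under 0.05), after a test on simulated data. EAE and sort comparisons used their own 10 libraries and the interaction all 20. CPM used TMM over the 20 libraries, and CPM per kb the union of exons. Alternatives were DESeq2 1.42.0 (its size factors in edgeR, and its Wald test), limma 3.58.1 voom with quality weights, 2 other count filters, all 20 libraries in 1 fit, the replicate block, the mitochondrial share as a covariate, leaving out each library, and leaving out 3 mice.

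The genes, the lists and the tests were chosen with earlier results of these data known. Named genes were the 7 genes, Mtf1, up to 4 called zinc transporters each way, and up to 2 of each other list by smallest p, per EAE comparison. The 3 most like genes of each member were also named. Genes named from the sort comparisons, and Tmem163, were chosen after their values were seen.

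Paired replicates: deviations from the group means of same-number NeuN-positive and NeuN-negative libraries correlated at 0.129 to 0.427 in EAE and 0.404 to 0.801 in healthy mice, all over the limit of 0.1. Different numbers reached 0.0874 and 0.448. In healthy mice the 0.448 lay above the lowest same-number value, 0.404, so the limit did not set same numbers apart there. The numbers, which come from the titles, were taken to pair the sorts. The main sort and interaction fits left this pairing out and treated paired libraries as independent. Only the replicate block took it in.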

Additional observations from a re-analysis of the deposited data

Results flagged for a closer look

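Of the 28 sets of 5 libraries formed by the 7 genes and 4 groups, 7 held a library that stood apart from the other 4, by the gap to its neighbour over the whole range (critical value 0.71). For normally distributed values, chance alone gives such a library in about 1 of 20 sets. The rule was applied to CPM without logs, which need not be so distributed, so this rate may not hold. All 7 were the highest library of their set. The sets are not independent, since the genes share libraries.

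EAE NeuN-positive replicate 2 stood apart for Mt1 at 540 CPM, for Mt2 at 448 CPM and for Mt3 at 421 CPM. EAE NeuN-negative replicate 1 stood apart for Mt2 at 607 CPM and for Mt3 at 288 CPM. Slc30a3 was highest in EAE NeuN-positive replicate 5, at 134 CPM, and in healthy NeuN-negative replicate 5, at 14.3 CPM.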

How the results depend on the processing

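Over the 19 alternatives the log2 fold changes of Mt1 and Mt2 in EAE, which chose these genes and are no test, were 1.93 to 2.77 and 2.62 to 3.28 in NeuN-positive and 1.34 to 1.88 and 1.40 to 2.25 in NeuN-negative nuclei. For EAE against healthy the numbers do not pair the libraries, with r of -0.355 to 0.274 in NeuN-positive and -0.217 to 0.262 in NeuN-negative nuclei. The replicate block of these comparisons grouped libraries by number all the same, and is counted among their 19 alternatives. Low counts limit several transporters: Slc39a4 had 44 counts in the 5 healthy and Slc39a7 37 in the 5 EAE NeuN-negative libraries, and Slc30a8, Mt4 and Gpr39 were too low to test. The cause of each change below was not tested.

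Values of genes that changed sign were all outside the call. In EAE NeuN-positive nuclei these were Slc30a1 at -0.24 without the 3 mice, Slc30a3 at 0.06 and Slc39a10 at 0.39 with the mitochondrial covariate, Slc39a14 at -0.11 without the filter, -0.05 with all 20 libraries, -0.06 with the replicate block and -0.11 to 0.20 leaving out single libraries, and Slc39a4 at -0.38 with voom, -0.14 with the covariate and -0.19 without the 3 mice. In NeuN-negative nuclei they were Slc30a1 at -0.27 without the filter, -0.13 with all libraries, -0.06 without the 3 mice and -0.19 to 0.58 leaving out libraries, and Slc30a3 at -0.03 without the filter. Mt3 was at 0.00 in the healthy sort comparison, -0.01 in the EAE one and -0.09 in the interaction without the 3 mice, and at -0.15 to 0.30 (healthy sorts) and -0.04 to 0.66 (interaction) leaving out libraries. In the interaction Slc30a1 was at -0.08 with the replicate block, -0.22 without the 3 mice and -0.18 to 0.75 leaving out libraries, and Slc39a8 at 0.22 with voom and -0.60 to 0.07 leaving out libraries.

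Of the 7 genes, those called in EAE NeuN-negative nuclei were 4 higher with voom or without the 3 mice, and 1 lower with voom, without the filter or with all libraries (0 to 1 leaving out libraries). In healthy sorts 4 were lower with voom or the covariate. In EAE sorts 3 were lower with the DESeq2 Wald test or the replicate block, 2 with voom, 1 with the covariate, 4 without the 3 mice and 0 to 2 leaving out libraries. In the interaction 2 were higher with voom, 1 with the replicate block and 0 to 1 leaving out libraries.

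Of the other zinc transporters in EAE NeuN-positive nuclei, 2 were higher with the Wald test or voom and 0 with the replicate block or the covariate (0 to 1 leaving out libraries), and 1 lower with the Wald test or without the 3 mice and 3 with voom. In NeuN-negative nuclei 5 were higher with voom, 1 without the filter or with the replicate block, 0 with the covariate and 1 to 3 leaving out libraries, and 5 were lower with all libraries and 1 with the covariate. In the interaction 1 was higher with the Wald test or without the 3 mice, 3 with voom, 2 with the replicate block and 0 to 1 leaving out libraries, and 2 were lower with the Wald test, 1 with voom, the replicate block, the covariate or without the 3 mice and 0 to 1 leaving out libraries.

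Over all genes, calls in EAE NeuN-positive nuclei numbered 1092 higher and 613 lower, with 532 to 3823 and 164 to 3882 over the alternatives. In NeuN-negative nuclei they were 2650 and 2220, with 1027 to 5618 and 438 to 4552. In the interaction they were 356 and 168, with 63 to 3066 and 21 to 1864. Between the sorts they were 3910 and 3938 in healthy mice, with 2995 to 6201 and 3471 to 6018. In EAE mice they were 2793 and 2662, with 2119 to 4550 and 1731 to 4596.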
